A study of Mus musculus with 12 samples.

Results

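Granule cells are the principal neurons of the dentate gyrus, the gate of the hippocampus. They receive cortical input through the perforant path, send mossy fibres to CA3, and are among the few neurons that are still born in the adult mouse. The data described here are the levels of 10 genes known to mark these cells (Prox1, Dsp, C1ql2, Tdo2, Calb1, Trpc6, Lct, Stxbp6, Glis3 and Fam163b), chosen by symbol from a table of 41743 genes. All 10 were found, and all 10 passed the filter on low values (a mean of at least 0.5 RPKM, met by 13493 genes).

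RNA-seq was performed on polyadenylated RNA of whole hippocampi from male C57Bl/6 mice, labelled as 12 weeks of age. The toxicant group (6 mice) received subcutaneous injections on weekdays for 2 weeks of 2.5 mg/kg pyridostigmine bromide, a reversible cholinesterase inhibitor, 12.5 mg/kg chlorpyrifos, an organophosphate insecticide, and 7.5 mg/kg of the insect repellent DEET, as a model of Gulf War exposure. The control group (6 mice) is labelled vehicle, and hippocampi were taken when the exposure ended. The columns of control 4 and control 5 were identical in every gene and were counted as 1 library (control 4-5), which left 6 toxicant and 5 control libraries. In whole tissue, fewer granule cells and less RNA of a gene per cell cannot be told apart.

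The libraries differed in composition before any marker was considered. The genic share was recovered from the RPKM values with annotated exon lengths, not measured on aligned reads. It is the percentage of a library's implied total reads that these values assign to genes. It was 76.8% to 83.8% in toxicant and 78.4% to 89.5% in control libraries. Control 2 (78.4%) stood apart from the other controls (83.1% and above). Reads per library came to 21.5 M to 28.4 M in toxicant and 25.0 M to 34.9 M in control libraries. In a fit of all genes, the median log2 fold change was -0.11, and 70.0% of genes were lower in toxicant libraries, so member values are to be read against that shift. No gene in the table passed limma's adjusted p of 0.05 (0% called). At an unadjusted p under 0.05, limma called 17.0% of genes lower and 3.33% higher in toxicant libraries, and an exact permutation test put 2528 genes below that p in either direction. Median-ratio scaling moved the all-gene median to -0.02 and the unadjusted calls to 708 lower and 1165 higher, and under it 3 members were lower and 1 (Calb1) was higher at that p.

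Of the 10 markers, 9 were lower in toxicant libraries, where 70.0% of all genes were. The median log2 fold change of the 10 was -0.16, beside -0.11 over all genes. Lct, Fam163b, Dsp and C1ql2 were lower at an unadjusted p under 0.05, and 0 members were higher at that p. Of all genes, 17.0% were lower and 3.33% higher at that p. The other 6 members, Prox1 among them, had log2 fold changes between -0.25 and 0.09, none past that p. No member passed the adjusted threshold with limma or with the exact permutation test. In 2.03% of all genes every toxicant library lay below the lowest control, and no member was among them.

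Lct encodes lactase, the brush-border enzyme that cleaves milk sugar in the gut and a marker of granule cells in the mouse hippocampus. The gene (ENSMUSG00000026354) lies on the minus strand at chr1:128284756-128328318 (GRCm38, here and for the genes that follow). Its level ran from 1.93 through a median of 3.87 to 5.43 RPKM in toxicant libraries, against 7.46, 5.27, 6.99, 7.61 and 5.82 RPKM in control 1, 2, 3, 4-5 and 6. Toxicant 4 was the lowest library (1.93 RPKM), 5 of 6 toxicant libraries lay below the lowest control, and toxicant 3 (5.43 RPKM) lay just above control 2. Means were 3.78 ± 1.23 RPKM (SD, n = 6) in toxicant and 6.63 ± 1.04 RPKM (SD, n = 5) in control libraries. The log2 fold change was -0.78 ± 0.19 (SE), the most negative of the 10 members (limma p = 0.00158, adjusted p = 0.172; exact permutation p = 0.00649).

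Fam163b, the most abundant member by RPKM, is known as a granule cell marker (ENSMUSG00000009216, chr2:27110380-27142491, minus strand). It ran from 26.4 through a median of 36.7 to 47.2 RPKM in toxicant libraries, against 64.8, 41.6, 60.0, 62.7 and 56.3 RPKM in control 1, 2, 3, 4-5 and 6. Of the 5 controls, 4 lay above the highest toxicant library, and control 2 lay inside the toxicant range. The means of 37.3 ± 7.28 RPKM (SD, n = 6) in toxicant and 57.1 ± 9.20 RPKM (SD, n = 5) in control libraries gave a log2 fold change of -0.62 ± 0.15 (limma p = 0.00143, adjusted p = 0.172; exact permutation p = 0.0108).

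Dsp encodes desmoplakin, which links desmosomes to intermediate filaments in epithelia and heart (ENSMUSG00000054889, chr13:38151294-38198577, plus strand). Toxicant libraries held 2.49 to 4.94 RPKM with a median of 3.61, against 4.73, 4.37, 5.95, 6.65 and 4.44 RPKM in control 1, 2, 3, 4-5 and 6. Toxicant 3 was the one exposed library above the lowest control. The log2 fold change was -0.51 ± 0.16 (limma p = 0.00669, adjusted p = 0.205; exact permutation p = 0.0216).

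C1ql2 encodes a secreted C1q-like protein that organises mossy fibre synapses (ENSMUSG00000036907, chr1:120340582-120343174, plus strand). It ran from 24.9 through a median of 29.5 to 37.3 RPKM in toxicant libraries, against 55.6, 25.0, 50.2, 36.5 and 50.2 RPKM in control 1, 2, 3, 4-5 and 6. The controls split: control 1, 3 and 6 lay above every toxicant library, while control 2 and 4-5 lay within the toxicant range. The means were 30.6 ± 4.42 RPKM (SD, n = 6) in toxicant and 43.5 ± 12.5 RPKM (SD, n = 5) in control libraries, a log2 fold change of -0.46 ± 0.19 (limma p = 0.0288, adjusted p = 0.227; exact permutation p = 0.0649). The genic share was 89.5%, 88.4% and 87.4% in the 3 high controls, against 78.4% in control 2 and 83.1% in control 4-5. In a fit that adjusts for the genic share, the log2 fold change of C1ql2 was -0.10 ± 0.13.

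Leaving out control 2 brought these 4 members past the adjusted threshold: limma adjusted p was 0.0230 for Lct, 0.0227 for Fam163b, 0.0283 for Dsp and 0.0227 for C1ql2, with log2 fold changes of -0.85, -0.72, -0.56 and -0.64. Without that library 28.1% of all genes were called lower and 8.56% higher, so 4 of 10 members called lower is to be set beside that background. No other library, left out alone, brought a member past the threshold.

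**Figure D1:**
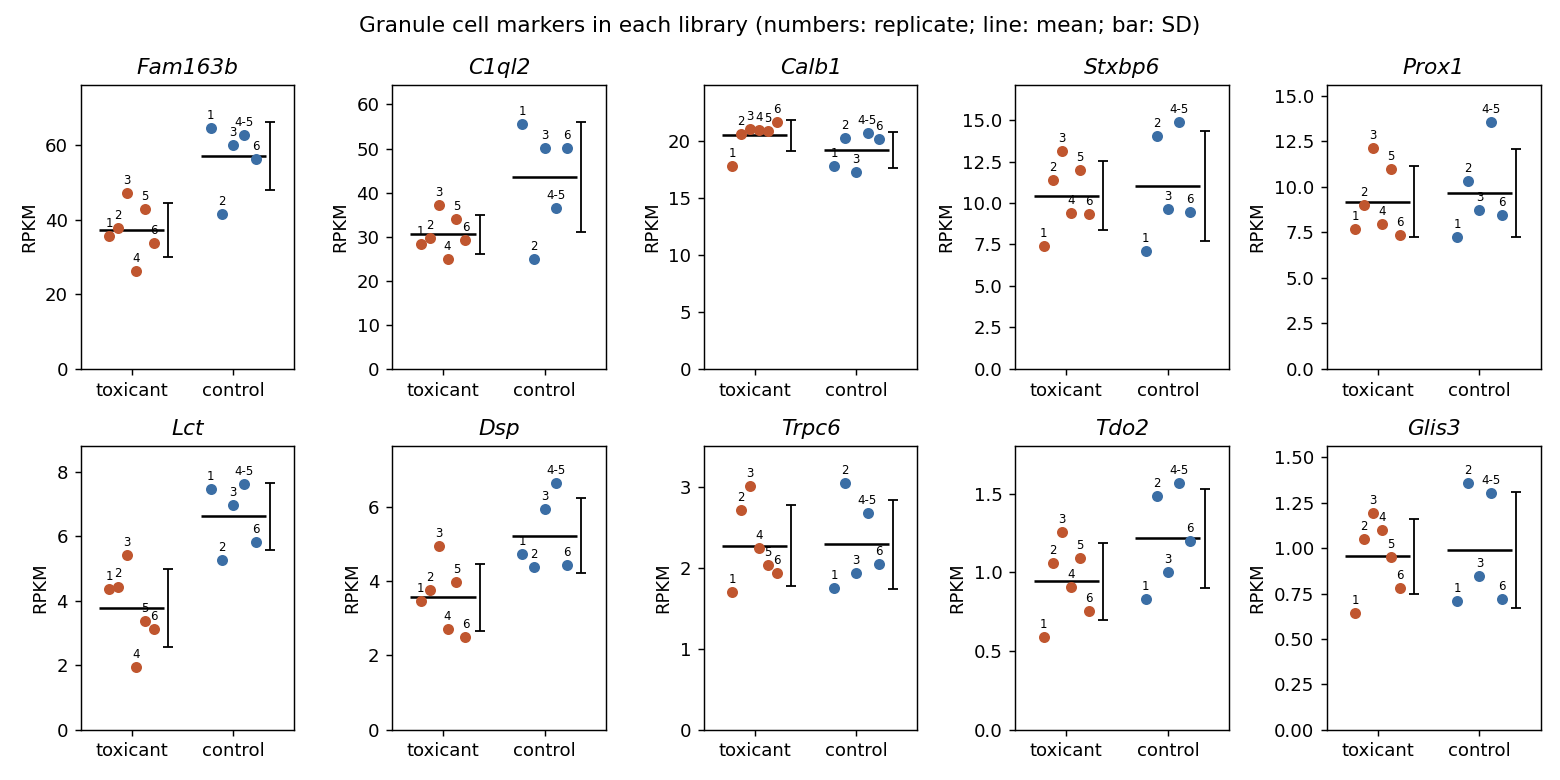
RPKM of each granule cell marker in each library, toxicant (orange) left of control (blue), with replicate numbers beside the points, a line at the mean and a bar of 1 SD; each axis starts at 0. For Lct, 5 of 6 toxicant libraries lie below the lowest control, while for Prox1 and Stxbp6 the controls span the whole toxicant range.

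Because these 4 members were lower together, the bases before their starts were read from RefSeq (GRCm38.p6). Of the 10 members, 9 had an entry. Calb1 had none, and Prox1 had separate windows at different starts. Capitals mark the GC box GGGCGG, read on both strands, in 5′ to 3′ sequence of each gene's own strand that ends at the base before the start. For Fam163b the 14 bases that GENCODE M21 counts as exon are left out.
Lct (chr1:128328319-128328568, minus strand): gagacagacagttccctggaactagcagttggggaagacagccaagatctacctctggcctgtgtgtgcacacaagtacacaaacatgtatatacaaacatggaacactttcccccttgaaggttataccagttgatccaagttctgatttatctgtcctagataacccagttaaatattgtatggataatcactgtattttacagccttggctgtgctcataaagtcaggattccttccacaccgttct
Fam163b (chr2:27142492-27142727, minus strand): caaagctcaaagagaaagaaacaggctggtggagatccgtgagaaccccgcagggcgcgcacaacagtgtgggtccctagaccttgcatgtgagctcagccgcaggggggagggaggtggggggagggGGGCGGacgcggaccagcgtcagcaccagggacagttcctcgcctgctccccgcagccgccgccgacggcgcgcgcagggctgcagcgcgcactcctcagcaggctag
Dsp (chr13:38151044-38151293, plus strand): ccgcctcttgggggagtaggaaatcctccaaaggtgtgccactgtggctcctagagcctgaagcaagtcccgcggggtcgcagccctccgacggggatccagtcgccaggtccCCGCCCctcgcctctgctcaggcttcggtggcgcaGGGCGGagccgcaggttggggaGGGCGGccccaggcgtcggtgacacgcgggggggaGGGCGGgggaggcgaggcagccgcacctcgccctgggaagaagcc
C1ql2 (chr1:120340332-120340581, plus strand): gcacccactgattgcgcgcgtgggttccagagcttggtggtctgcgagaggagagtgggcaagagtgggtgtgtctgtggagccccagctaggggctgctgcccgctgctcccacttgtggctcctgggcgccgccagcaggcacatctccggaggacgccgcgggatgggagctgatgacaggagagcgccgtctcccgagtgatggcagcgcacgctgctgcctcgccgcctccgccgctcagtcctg

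The windows were unlike in composition. That of Lct had 42.8% GC and no GC box, that of C1ql2 68.8% GC and none, that of Fam163b 68.6% and 1, and that of Dsp 72.4% and 4. GGGCGG was found in 32.7% of 32851 promoter windows of 250 bases in the same table. The E-box CAGCTG, in 13.0% of all windows, and the cAMP response element TGACGTCA, in 1.55%, were in none of the 4 shown. Among the windows of the other members, CAGCTG was found in that of Glis3, and GGGCGG in those of Prox1 and Glis3. Counts here are of windows, and Prox1 enters with more than 1. In all, 5 of 10 member windows held GGGCGG, so GGGCGG did not set the 4 lower members apart. These are matches of letters, not sites shown to be bound.

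Prox1 encodes the homeobox factor that specifies granule cells and maintains their identity (ENSMUSG00000010175, chr1:190118035-190170714, minus strand). It ran from 7.33 through a median of 8.50 to 12.2 RPKM in toxicant libraries, against 7.26, 10.3, 8.72, 13.6 and 8.46 RPKM in control 1, 2, 3, 4-5 and 6. The controls spanned the whole toxicant range, and the log2 fold change was -0.06 ± 0.16 (limma adjusted p = 0.790; exact permutation p = 0.732). The sign turned with median-ratio scaling (0.04) and without control 4-5 (0.06). The antisense gene Prox1os overlaps an exon of Prox1 and was at 1.62 to 4.44 RPKM over the 11 libraries. Whether reads were counted by strand is not given in the sources used here, so reads of the pair cannot be told apart.

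Glis3, a zinc finger transcription factor, was the lowest member by its mean over all 11 libraries. It was at 0.643 to 1.20 RPKM (median 1.00) in toxicant libraries, against 0.711, 1.36, 0.848, 1.30 and 0.720 RPKM in control 1, 2, 3, 4-5 and 6. Control 2 and 4-5 were the highest of all 11 libraries and control 1, 3 and 6 among the 5 lowest, whereas for C1ql2 control 1, 3 and 6 were the highest. The log2 fold change was -0.02 ± 0.15 (limma adjusted p = 0.924), and 6 of 21 alternatives turned its sign, among them median-ratio scaling (0.05).

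Stxbp6 encodes amisyn, which binds the SNARE proteins of vesicle fusion. Toxicant libraries held 7.43 to 13.1 RPKM (median 10.4), against 7.10, 14.0, 9.65, 14.9 and 9.45 RPKM in control 1, 2, 3, 4-5 and 6. The controls spanned the whole toxicant range, and toxicant minus control came to -0.05 ± 0.19 on the log2 scale (limma adjusted p = 0.861), or 0.06 with median-ratio scaling.

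Trpc6, a calcium-permeable cation channel, was at 1.70 to 3.01 RPKM (median 2.14) in toxicant libraries, against 1.75, 3.05, 1.93, 2.67 and 2.04 RPKM in control 1, 2, 3, 4-5 and 6. The ranges nearly coincided, and the log2 fold change was -0.01 ± 0.15 (limma adjusted p = 0.980), or 0.08 with median-ratio scaling.

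Tdo2 encodes tryptophan dioxygenase, which opens the kynurenine pathway. It was at 0.588 to 1.26 RPKM (median 0.982) in toxicant libraries, against 0.828, 1.49, 1.00, 1.57 and 1.20 RPKM in control 1, 2, 3, 4-5 and 6. Control 2 and 4-5 lay above every toxicant library. The log2 fold change was -0.25 ± 0.15 (limma adjusted p = 0.292; exact permutation p = 0.152). The values rested on 49 to 178 reads per library, the fewest of any member.

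Calb1 encodes calbindin, a calcium buffer of mature granule cells that CA1 pyramidal cells and some interneurons also hold. It was the steadiest member, at 17.8 to 21.7 RPKM (median 20.9) in toxicant libraries, against 17.8, 20.2, 17.2, 20.7 and 20.1 RPKM in control 1, 2, 3, 4-5 and 6. Its coefficient of variation was 6.66% in toxicant and 8.27% in control libraries, where the other members had 14.4% to 32.4% and 15.6% to 32.2%. The log2 fold change was 0.09 ± 0.08 (limma adjusted p = 0.423). It was 0.20 with median-ratio scaling, where limma's unadjusted p was 0.0304 and its adjusted p 0.351, and -0.20 after a GC correction of each library.

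By mean RPKM over the 11 libraries, a level per length of gene model, the order was Fam163b (46.3), C1ql2 (36.5), Calb1 (19.9), Stxbp6 (10.7), Prox1 (9.41), Lct (5.07), Dsp (4.32), Trpc6 (2.28), Tdo2 (1.07) and Glis3 (0.970). Fam163b exceeded C1ql2 in 11 of 11 libraries, although their ranges overlapped. The ranges of Stxbp6 and Prox1, of Prox1 and Lct, of Lct and Dsp, of Dsp and Trpc6, and of Tdo2 and Glis3 also overlapped. Fam163b lay above 94.9% of tested genes and Glis3 above 12.4%.

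The libraries differed in how many markers were high. Toxicant 3 held the highest value of the group for 9 of 10 members and lay above the 11-library median for all 10. Toxicant 1 lay above that median for 0 of 10 and held the lowest value for 5, and toxicant 6 lay above it for 1. Toxicant 2, 4 and 5 were mixed, above the median for 4, 3 and 4 members, and toxicant 4 was lowest of its group for 3 (Lct, Fam163b and C1ql2). Among controls, control 4-5 was above the median for all 10 members. After removal of group means, 33 of 45 pairs of members had a positive Pearson r over the 11 libraries, with a median of 0.47. The values ran from -0.57 for C1ql2 with Glis3 to 0.96 for Tdo2 with Stxbp6. These are descriptions of points that share library, depth and composition.

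All 12 negative pairs joined Lct, Fam163b, Dsp or C1ql2 to one of the other 6 members, of 24 such pairs. These 4 members had 51.8% to 63.4% GC in the longest transcript, and the other 6 members 36.8% to 50.3%. Over all genes tested, those with a GC content at or above 51.8% had a median log2 fold change of -0.18, against -0.04 for those below it. After a GC correction of each library, the log2 fold changes were -0.60 ± 0.18 for Lct, -0.44 ± 0.12 for Fam163b, -0.34 ± 0.16 for Dsp and -0.31 ± 0.10 for C1ql2. Tdo2 was then at -0.47 ± 0.10, and the median over all genes was -0.0029.

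**Figure D2:**
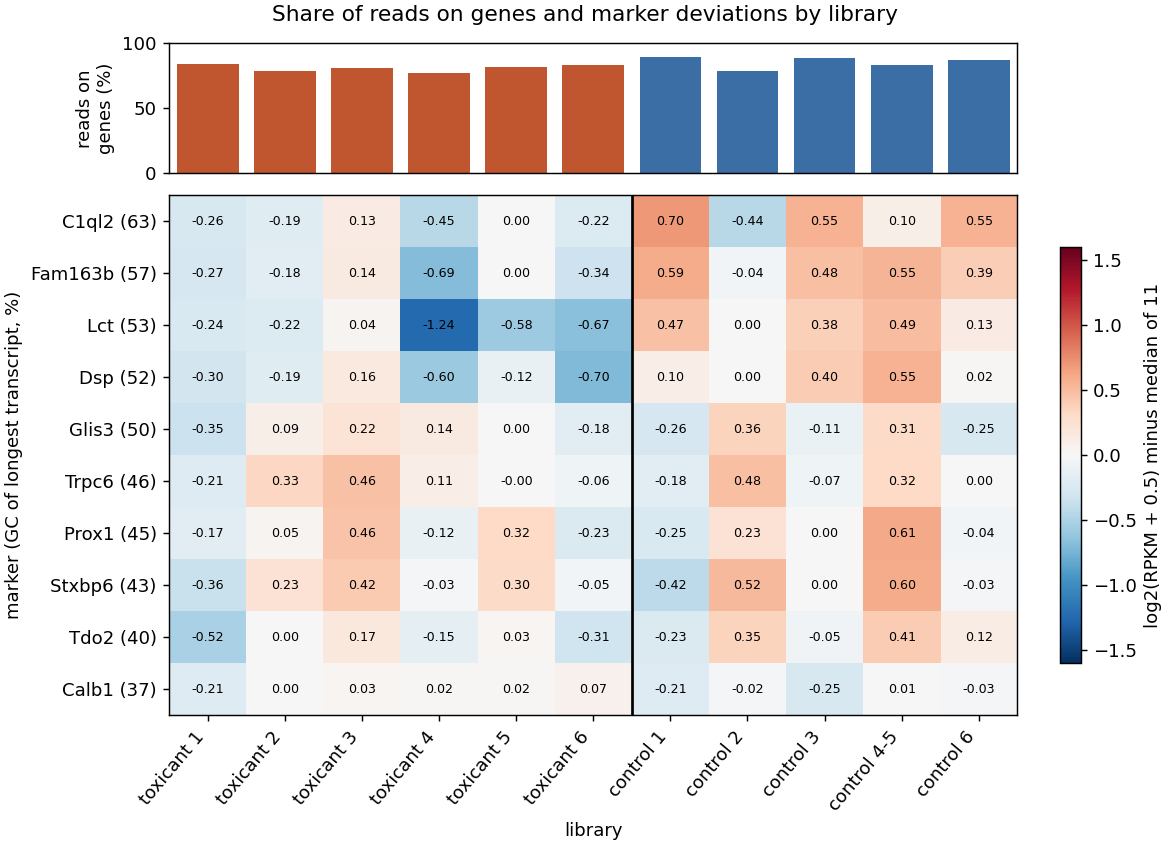
Top, genic share of reads in each library (bars, percent, from 0); bottom, log2(RPKM + 0.5) of each marker minus its median over the 11 libraries, toxicant libraries left of the line and controls right, markers ordered by GC content. Control 1, 3 and 6 are high for C1ql2 and low or near 0 for Glis3, control 2 is the reverse, and toxicant 3 is above the median in each row.

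The genic share entered the fits only as a covariate. It differed between the groups (means of 80.8% in toxicant and 85.4% in control libraries), and control 1, 3 and 6 lay above every toxicant library. Group and genic share therefore cannot be fully told apart in this fit. With that adjustment, 9 of 10 members were lower in toxicant libraries, with a median log2 fold change of -0.32, while the median over all genes was -0.03. The percentage of all genes lower in this fit is not given here. At an unadjusted p under 0.05, 6 members were lower, where 9.13% of all genes were: Lct (-0.59 ± 0.22), Dsp (-0.48 ± 0.19), Tdo2 (-0.47 ± 0.14), Fam163b (-0.41 ± 0.14), Glis3 (-0.30 ± 0.11) and Trpc6 (-0.27 ± 0.11). None passed the adjusted threshold (limma adjusted p = 0.254 for Tdo2, the smallest). Without the covariate the median was -0.16, and Lct, Fam163b and Dsp were the 3 members whose log2 fold change lay below -0.30 in each fit plotted.

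**Figure D3:**
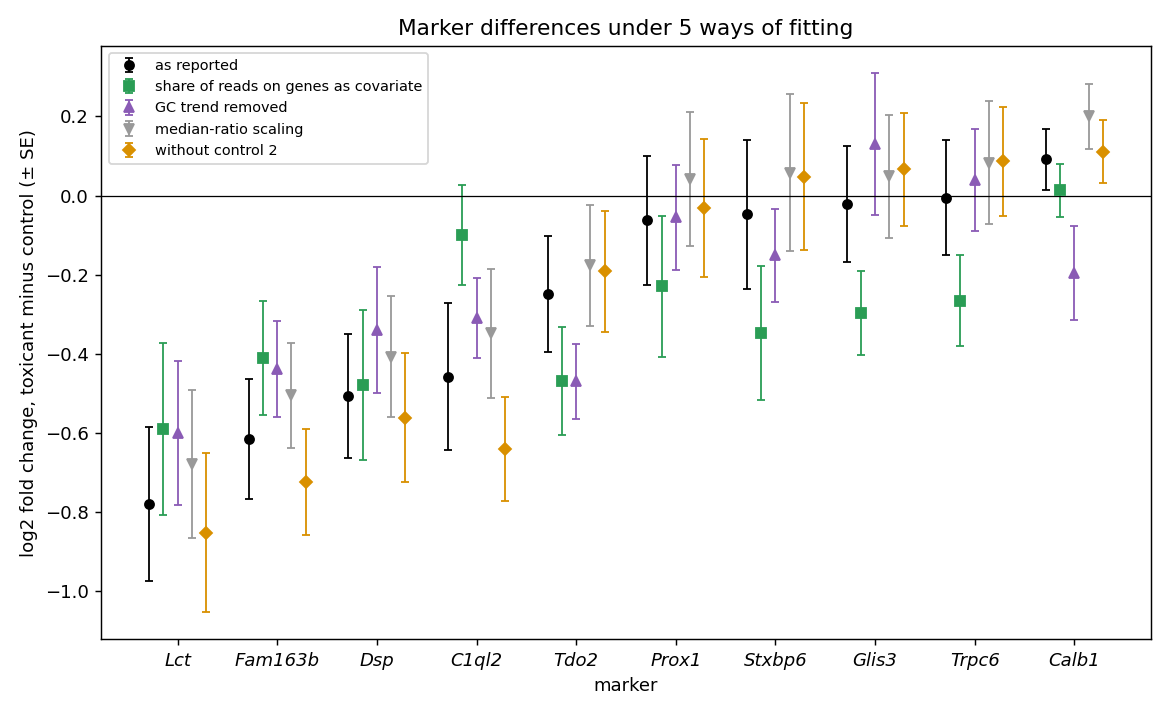
Log2 fold change of each marker, toxicant minus control, ± SE, in the fit as reported (black) and in 4 alternatives. Lct, Fam163b and Dsp lie below -0.30 in all 5, C1ql2 reaches -0.10 after adjusting for the genic share, and Prox1, Stxbp6, Glis3 and Trpc6 lie on both sides of 0.

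Of 16 further genes known to be enriched in granule cells, all 16 were tested and 0 passed the adjusted threshold. In toxicant libraries 11 were lower, where 70.0% of all genes were. Their median log2 fold change was -0.13, beside -0.11 over all genes. At an unadjusted p under 0.05, 5 were lower and 0 higher, where 17.0% and 3.33% of all genes were. They included Tiam1, an activator of Rac (-0.33 ± 0.10), Plekha2 (-0.36 ± 0.14), Sipa1l2 (-0.28 ± 0.12) and Bcl11b, a zinc finger factor of granule and CA1 neurons (-0.20 ± 0.09). C1ql3, the relative of C1ql2 at the same synapse, was at 45.0 ± 6.63 RPKM (SD, n = 6) in toxicant and 43.4 ± 2.85 RPKM (SD, n = 5) in control libraries (0.04 ± 0.11). Neurod1, a factor of granule neuron differentiation, was at 7.25 ± 0.770 RPKM (SD, n = 6) in toxicant and 7.46 ± 0.835 RPKM (SD, n = 5) in control libraries.

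The 10 markers were set beside markers of other hippocampal neurons. Of all genes, 70.0% were lower in toxicant libraries, and 17.0% were lower at an unadjusted p under 0.05. CA1 genes were lower in 6 of 8 cases (median log2 fold change -0.19), CA2 genes in 6 of 6 tested (-0.22) and CA3 genes in 5 of 8 (-0.04). None of these was called, and 3, 3 and 1 were lower at an unadjusted p under 0.05. Among the most abundant of them, Mpped1 and Fibcd1 of CA1 had log2 fold changes of -0.11 ± 0.14 and -0.17 ± 0.17, Pcp4 and Necab2 of CA2 -0.28 ± 0.09 and -0.05 ± 0.18, and Bok and Cpne4 of CA3 -0.02 ± 0.17 and -0.13 ± 0.10. Interneuron genes were lower in 6 of 8 cases (median -0.07), with Sst at -0.10 ± 0.18 and Npy at -0.04 ± 0.12. General neuronal genes, a list that also holds the glutamatergic transporter Slc17a7, were lower in 6 of 8 (-0.13), with Snap25 at 0.18 ± 0.13 and Slc17a7 at -0.18 ± 0.15.

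A score per library, the mean log2 value of a list minus the mean of all tested genes, was taken for each list and is given without a test. The granule cell score was 0.32 ± 0.19 (SD, n = 6) in toxicant and 0.52 ± 0.15 (SD, n = 5) in control libraries. Minus the CA3 score it was 0.09 to 0.34 in toxicant and 0.37 to 0.69 in control libraries. Minus the CA1 score it was -1.36 to -0.57 in toxicant and -1.11 to -0.57 in control libraries, and the groups overlapped. They also overlapped for the difference from the CA2 score (-1.08 to -0.36 in toxicant and -1.06 to -0.32 in control libraries) and from the general neuronal score (-4.02 to -3.49 in toxicant and -3.72 to -3.29 in control libraries). Minus the score of the 16 further granule cell genes it was -0.20 to -0.03 in toxicant and -0.02 to 0.03 in control libraries. The CA3 score alone was 0.12 ± 0.09 (SD, n = 6) in toxicant and 0.04 ± 0.10 (SD, n = 5) in control libraries. No score was adjusted for the genic share, and the part of library composition in these differences was not tested.

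**Figure D4:**
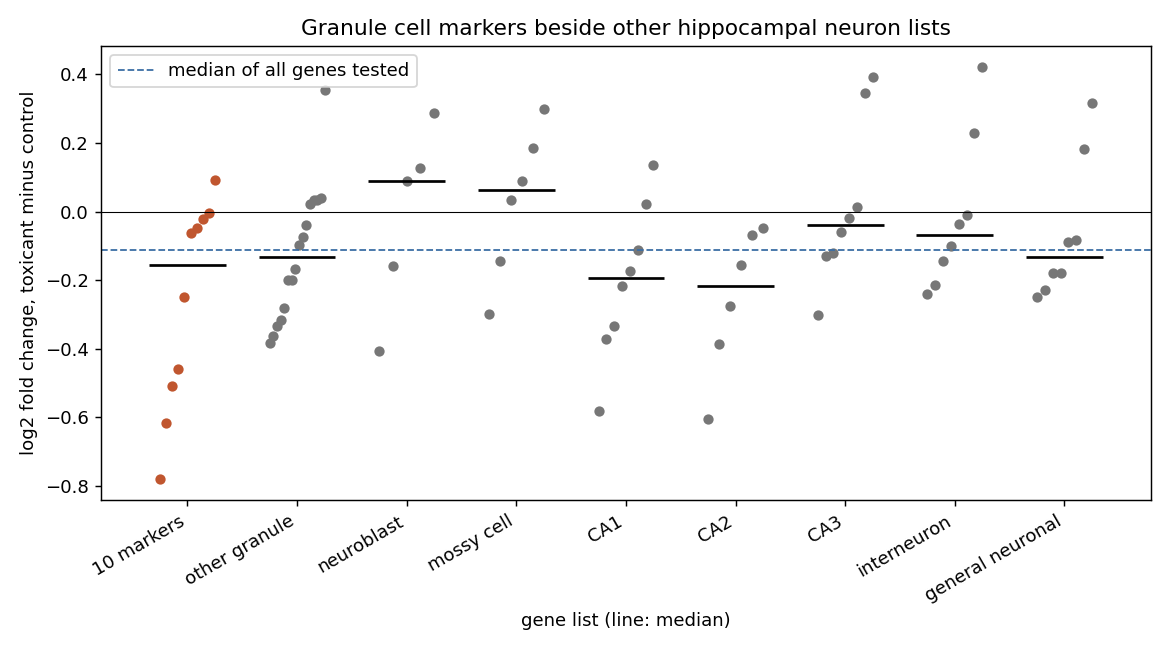
Log2 fold change, toxicant minus control, of each tested gene (points) in the 10 markers and in lists of other hippocampal neurons, with each list's median (line) and the median of all genes tested (dashed). The markers run from -0.78 to 0.09, and their median of -0.16 lies near the all-gene median of -0.11.

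Markers of other cells are given beside these values. Oligodendrocyte genes were lower in 7 of 9 cases (median log2 fold change -0.51), with sums of 476 to 657 RPKM in toxicant and 684 to 768 RPKM in control libraries. Microglial genes were lower in 6 of 6 (-0.28), endothelial genes in 5 of 5 (-0.34), and astrocyte genes in 4 of 6 (-0.10). At an unadjusted p under 0.05 this held for 7, 4, 5 and 1 of them, beside 17.0% of all genes, and 70.0% of all genes were lower at any p. Of these list genes, 0 passed the adjusted threshold. The myelin gene Mbp was at -0.56 ± 0.12, the microglial receptor Csf1r at -0.30 ± 0.10 and the tight junction gene Cldn5 at -0.31 ± 0.10. Nuclear-retained RNAs were lower in 0 of 7 (median 0.29, or -0.21 after adjusting for the genic share), with overlapping sums of 342 to 814 RPKM in toxicant and 141 to 870 RPKM in control libraries. Choroid plexus genes overlapped too and summed to 15.0 to 1802 RPKM in toxicant and 16.5 to 2887 RPKM in control libraries. No list held a gene at 0 in every library. The part of these cells in the marker values was not tested.

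From 13483 other genes, predicted genes (named Gm plus digits, or ending in Rik) were left out. By the likeness of their deviations from the group mean to the mean of the members' over the 11 libraries, 5 of the rest led. They were Rras2, a small GTPase (Pearson r 0.94, Spearman rho 0.97), the Hedgehog factor Gli2 (0.94 and 0.85), the noncoding RNA Emx2os (0.92 and 0.83), Frmd4b (0.91 and 0.89) and Vsig2 (0.91 and 0.87). Without the 2 libraries farthest from the median, r was 0.76 to 0.88. They were ranked by this measure, so no test applies, and the points share library and depth. Prox1 itself stood at 0.93 and C1ql2 at 0.06. Each member is part of the mean it is set against, so its r is not comparable with those of the 5 genes.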

How the data were processed

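Gene levels are RPKM values (reads scaled to gene length and library size) that the authors deposited for 12 libraries, per the file headers. The labels' protocols give poly(A) selection, a NEBNext Ultra kit and single reads on a NextSeq instrument. The genome build and the tools for alignment and counting are not stated in the sources used here. Columns were matched to samples by the code in each description. Nothing beyond different animals is said of how replicates were raised.

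From these values, reads per library were recovered with exon lengths of GENCODE M21 (GRCm38), in which 41675 of 41743 gene IDs were found. Between 98.3% and 98.4% of values came out whole within 0.05 reads. Genes averaging 0.5 RPKM or more were fitted as log2(RPKM + 0.5) with limma 3.58.1 in R 4.3.3 (trend, two-sided, Benjamini-Hochberg over 13493 genes, threshold 0.05), and fold changes on that scale understate those of low genes. The exact permutation test used all 462 splits of 11 libraries, two-sided, with a smallest p of 0.00216. The limma script was tested on simulated data. GC trends were lowess fits (span 0.3).

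The members and lists were chosen with earlier results of these data known. Named genes are the members, the 2 most abundant genes of other lists and the 5 most alike genes. Of the 16 further granule genes, those past an unadjusted p of 0.05, Neurod1 and the promoters shown were chosen after their values were seen. Alternatives were 2 pseudocounts, 2 filters, median-ratio scaling, 12 columns, a replicate block, a covariate, no trend, the exact test, each library left out, and a GC correction chosen after seeing the data.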

Additional observations from a re-analysis of the deposited data

Results flagged for a closer look

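In 20 groups of 5 or 6 values (10 members in the toxicant and in the control group), 1 library lay beyond Dixon's 95% critical value, and chance flags about 1 in 20 such groups. Calb1 was at 17.8 RPKM in toxicant 1, below the other 5 toxicant libraries (20.6 to 21.7 RPKM), with a gap to the nearest of 0.728 of the group's range. Control 1 (17.8 RPKM) and control 3 (17.2 RPKM) had values as low. Without toxicant 1 the log2 fold change of Calb1 was 0.13.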

How the results depend on the processing

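Lct, Fam163b, Dsp, C1ql2 and Tdo2 were lower in toxicant libraries under each alternative run. Leaving out each library in turn, genes called higher ranged from 0 to 1153, genes called lower from 0 to 3779, members called lower from 0 to 4 and the members' median log2 fold change from -0.26 to -0.07, and each count above 0 was without control 2. With a pseudocount of 0.1, 1 gene was called higher, and with all 12 columns 9 were called lower. The members' median was -0.32 after adjusting for the genic share. Signs turned for 5 members: with median-ratio scaling for Prox1 (0.043), Trpc6 (0.084), Stxbp6 (0.058) and Glis3 (0.049), after the GC correction for Calb1 (-0.20), Trpc6 (0.039) and Glis3 (0.13), and with the replicate block for Trpc6 (0.016, the same value as without toxicant 5). Leaving out 1 library, the range was -0.078 to 0.087 for Trpc6, -0.19 to 0.069 for Stxbp6, -0.089 to 0.066 for Glis3 and -0.15 to 0.062 for Prox1, and the cause was not tested. Whether replicate numbers pair the libraries was not settled. Same-numbered pairs had correlations of -0.30 to 0.62, and 3 of 10 libraries correlated best with their own number. With the replicate block, in which toxicant 5 has no partner and adds nothing to the difference, 0 members and 0 genes were called. The members' median was -0.20, as it was without toxicant 5 and no block. Under the block, 3600 genes were lower and 1064 higher at an unadjusted p under 0.05. Limma's adjusted p was then 0.0998 for Lct, Dsp and Fam163b. At 49 to 178 reads, Tdo2 is the member most limited by depth.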

Other observations

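Young granule cells and the mossy cells of the hilus were read through lists of their own, as values without a test of the list. Of all genes, 70.0% were lower in toxicant libraries. Of 8 neuroblast genes 5 were tested, 2 were lower in toxicant libraries and the median log2 fold change was 0.09, or -0.17 without control 2 and -0.09 without control 4-5. The abundant ones were Sox4 (-0.16 ± 0.10) and Calb2 (0.09 ± 0.30), which is also on the mossy cell list. Dcx, the microtubule protein of migrating neuroblasts, was named after its value was seen. It was at 0.999 ± 0.182 RPKM (SD, n = 6) in toxicant and 0.783 ± 0.473 RPKM (SD, n = 5) in control libraries. Its log2 fold change was 0.29 ± 0.20 (limma adjusted p = 0.338), or -0.13 after adjusting for the genic share (limma adjusted p = 0.630). Without control 2 it was 0.46 (limma adjusted p = 0.0397). In that fit 1 neuroblast gene was called higher and 0 lower, beside 8.56% and 28.1% of all genes. Of 8 mossy cell genes 6 were tested, 2 were lower, and the median was 0.06, or -0.05 without control 2 and -0.04 without control 4-5, with Ociad2 at -0.14 ± 0.10. Genes of adjoining thalamus were lower in 3 of 5 tested (median -0.19) and those of cortex in 2 of 4 (-0.04).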
